A study of Mus musculus with 42 samples.

Results

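Selenoprotein genes encode proteins that carry selenocysteine, an amino acid with selenium in place of the sulfur of cysteine. The 10 genes described here were chosen by name from the 26653 genes of the deposited table, not by their values: *Sepp1*, *Sepw1*, *Gpx1*, *Gpx2*, *Gpx3*, *Gpx4*, *Txnrd1*, *Txnrd2*, *Txnrd3* and *Dio1*. *Selm*, a selenoprotein gene that lies beside *Tug1* on its chromosome, was left out of the 10 and is given separately. Selenocysteine is read from a TGA codon, which otherwise ends translation, when a stem-loop in the 3′ untranslated region of the mRNA recruits the insertion factors. Liver packs selenium into selenoprotein P, the product of *Sepp1*, which carries it through the blood to other organs. In testes, selenium is needed for sperm formation, and the phospholipid peroxidase encoded by *Gpx4* becomes a structural protein of the sperm midpiece.

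RNA was sequenced from testes, prostate, spleen, eyes, heart and liver of male mice and from mouse embryonic fibroblasts (MEFs). The samples comprise 22 wild-type and 20 *Tug1*-/- samples, with 4 wild-type and 3 knockout samples of testes, 3 and 2 of prostate, and 3 and 3 of each other tissue. *Tug1*-/- mice are homozygous for the Tug1_tm1.1Vlcg allele, in which a lacZ reporter replaces the *Tug1* gene body while the promoter and the first exon remain. The neomycin cassette had been removed from this allele and the line backcrossed to C57BL/6J. Since the DNA of the locus and its RNA are lost together, the comparison cannot tell them apart. The MEFs were primary male cells at passage 2, and the ages of the adult mice were not given in the sources used here.

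The table gives 1 value per gene, tissue and genotype in FPKM, a level scaled by transcript length and by library size, in which the authors had combined the replicates. There is therefore no replicate check on any difference below: no spread between mice and no *p* value could be computed, and the depth of the libraries is unknown. A change was computed as log2((KO + 0.1)/(WT + 0.1)), a scale on which the change of a low gene comes out too small. A gene was counted as measured in a tissue when the mean of its wild-type and knockout values was at least 1 FPKM, and as higher or lower when its change passed 1.5-fold, or 0.585 on the log2 scale. In the knockout *Tug1* itself was between 0.00753 FPKM in liver and 0.402 FPKM in testes, against 11.2 FPKM in heart to 27.7 FPKM in testes of wild-type mice. Each tissue held markers of its own main cell type, although *Tgm4* in prostate and the hepatocyte marker *Serpina1c* in liver were listed at 0 in both genotypes. Some tissues also differed between genotypes in markers of other cells, and the lists given below are not repeated beside every gene. In knockout heart 0 of 8 measured members were past this limit. The adipocyte list summed to 72.0 FPKM there against 136 FPKM in wild-type heart, and the B cell list to 13.7 against 30.6 FPKM. In each of these lists 4 of 4 measured markers were lower. Skeletal muscle markers were lower for 3 of 5, with a median change of -3.58, while their sum was 1402 against 1336 FPKM. Erythroid markers were lower for 1 of 4, with sums of 1160 against 1993 FPKM, and T cell markers for 1 of 2 measured.

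The selenocysteine codon is what the 10 genes share, so the coding bases around it are shown, read from GENCODE vM21 transcripts on GRCm38 (mm10) in the 5′ to 3′ direction, with the TGA codon in capitals.
Sepp1: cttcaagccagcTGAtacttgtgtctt
Sepw1: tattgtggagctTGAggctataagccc
Gpx1: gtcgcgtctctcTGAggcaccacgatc
Gpx2: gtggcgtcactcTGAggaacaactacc
Gpx3: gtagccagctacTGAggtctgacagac
Gpx4: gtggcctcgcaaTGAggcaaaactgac
Txnrd1: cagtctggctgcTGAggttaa
Txnrd2: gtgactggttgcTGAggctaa
Txnrd3: cagaaaggctgcTGAggctag
Dio1: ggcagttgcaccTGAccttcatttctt

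The codon sits in the coding exons of every one of the 10 genes, but at different places. In the 3 thioredoxin reductases it was followed by 1 further codon and the stop codon, so that the selenocysteine is the second residue from the end of the protein. In the 4 glutathione peroxidases it lay well inside the reading frame, at codon 47 of 201 in *Gpx1*, 40 of 190 in *Gpx2*, 73 of 226 in *Gpx3* and 73 of 197 in *Gpx4*. *Sepp1* differed from the other 9 genes in having 10 such codons, the first at codon 59 and the remaining ones between codons 259 and 377 of 380, where the protein holds the selenium that it transports. Of the 27 bases shown for the peroxidases, *Gpx1* and *Gpx2* had 21 in common, whereas *Gpx3* shared 13 with each of them.

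The genes lie on 9 chromosomes in the GRCm38 annotation. *Sepp1* (ENSMUSG00000064373.5, now named *Selenop*) is at chr15:3268547-3280508 with its first selenocysteine codon at chr15:3274848-3274850, and *Gpx1* (ENSMUSG00000063856.6) is at chr9:108338903-108340343 with the codon at chr9:108339451-108339453. *Gpx3* (ENSMUSG00000018339.5) is at chr11:54902453-54910377 with the codon at chr11:54907256-54907258, and *Gpx4* (ENSMUSG00000075706.4) is at chr10:80047166-80056439 with the codon at chr10:80054737-80054739. *Txnrd2* (ENSMUSG00000075704.10) is at chr16:18426384-18479073 with the codon at chr16:18477772-18477774, and *Txnrd3* (ENSMUSG00000000811.7) is at chr6:89643988-89675529 with the codon at chr6:89674789-89674791. *Gpx2* (ENSMUSG00000042808.7) is at chr12:76792333-76795554, *Txnrd1* (ENSMUSG00000020250.9) at chr10:82833951-82897712, *Dio1* (ENSMUSG00000034785.8) at chr4:107291465-107307169, and *Sepw1* (ENSMUSG00000041571.7, now *Selenow*) at chr7:15917208-15922402. The library kit named by the study does not keep the strand, so reads from overlapping genes on opposite strands cannot be told apart. *Gpx2* lies inside *Fntb* over all of its 3222 bp, and *Sepp1* overlaps *Ccdc152* by 439 bp, both on opposite strands. *Txnrd1* overlaps the noncoding gene *Gm38560* by 13276 bp and *Gm47073* by 1393 bp, also on the opposite strand. *Eid3* overlaps *Txnrd1* by 1305 bp on the same strand. *Gpx2* and *Gpx4* each have an annotated processed pseudogene, and how reads shared with these were assigned is not given in the sources used here.

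Across tissues, 8 of the 10 genes were measured in all 7, *Dio1* was measured in liver and testes, and *Gpx2* was measured in none. This leaves 58 measured pairs of gene and tissue out of 70. Of these, 2 were higher and 2 lower in the knockout by more than 1.5-fold: *Gpx3* in prostate and *Txnrd2* in spleen were higher, and *Sepp1* and *Gpx3* in MEFs were lower. The other 54 measured pairs were within 1.5-fold.

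Read by tissue, the members have to be set against all measured genes. In MEFs 2 of 8 measured members were past 1.5-fold, while 3.18% of 11587 measured genes were past it in either direction and 2.2% were lower. Of the genes past it in MEFs 30.7% were higher, or 43.1% when levels were taken relative to the summed FPKM. In prostate 1 of 8 was past the limit, against 3.08% of all measured genes in either direction and 2.4% higher. In spleen 1 of 8 was past it, against 6.02% in either direction and 4.91% higher, the widest background of the 7 tissues. In the other 4 tissues 0 members were past it, with backgrounds of 1.92% in testes, 3.51% in eyes, 2.32% in heart and 4.81% in liver. With 8 or 9 members in a tissue, these counts are small and describe the pooled values.

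**Figure D1:**
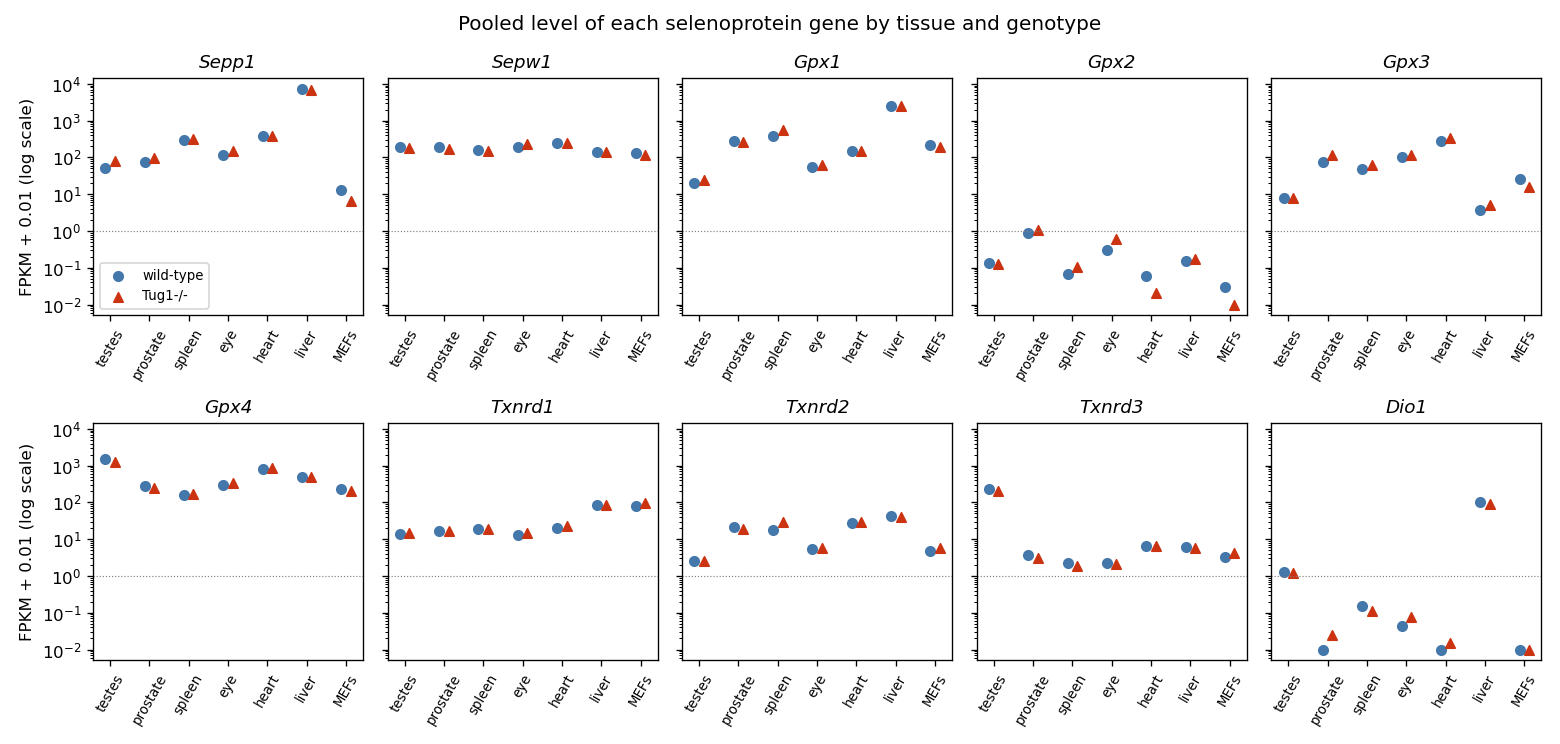
Level of each of the 10 selenoprotein genes as FPKM + 0.01 on a log scale (y axis) in 7 tissues (x axis), with wild-type as blue circles and *Tug1*-/- as red triangles, each point being the authors' 1 pooled value and the dotted line 1 FPKM. The genotypes lie close together beside the differences between tissues, which span from 12.9 to 7181 FPKM for *Sepp1* in wild-type mice.

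*Sepp1* encodes the selenium carrier of plasma. Its level was 7181 FPKM in wild-type and 6966 FPKM in knockout liver, the wild-type value being 18.8 times that of heart, the tissue with the next highest level, or 11.02 times when both were taken relative to the summed FPKM without mitochondrial genes and genes with too little data. In heart it was 381 FPKM in wild-type and 386 FPKM in knockout, and in spleen 299 and 309 FPKM. These 3 tissues with the highest levels had log2 changes of -0.04, 0.02 and 0.05, in liver, heart and spleen. In eyes the level was 115 FPKM in wild-type and 149 FPKM in knockout, and in prostate 77.4 and 96.1 FPKM, changes of 0.38 and 0.31.

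In testes *Sepp1* was 52.3 FPKM in wild-type and 78.0 FPKM in knockout. The log2 change of 0.57 stayed just short of the limit, and it passed the limit when values were centred on the median change of the tissue (0.63) or set relative to the summed FPKM of the group (0.67). The Leydig cell marker list (*Insl3*, *Cyp17a1*, *Hsd3b1*, *Star* and *Cyp11a1*) summed to 949 FPKM in wild-type and 1366 FPKM in knockout testes, with 0 of 5 markers past 1.5-fold and none at 0. The spermatid list summed to 40620 and 34818 FPKM with 0 of 6 past the limit. The Sertoli list summed to 56.6 and 67.3 FPKM with 0 of 5 past it, and the macrophage list to 26.1 and 34.1 FPKM with 1 of 5 measured markers higher. Changes ran from 0.19 to 0.58 for Leydig markers and from -0.29 to -0.13 for spermatid markers. They ran from 0.16 to 0.39 for Sertoli markers and from -0.44 to 0.61 for macrophage markers. The part of these cell types in the *Sepp1* value was not tested, and in whole tissue fewer cells of a type and less RNA per cell cannot be told apart.

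In MEFs, where *Sepp1* had its lowest level, it was 12.9 FPKM in wild-type and 6.56 FPKM in knockout cells. The wild-type value was 1.96 times the knockout value, a log2 change of -0.96, and 0.397% of the measured genes had a lower change. This was the widest change of any measured pair among the members. The fibroblast marker list (*Col1a1*, *Col3a1*, *Dcn*, *Pdgfrb* and *Thy1*) summed to 2578 FPKM in wild-type and 2366 FPKM in knockout MEFs, with 0 of 5 past 1.5-fold. All 5 markers had changes below 0, from -0.53 (*Dcn*) to -0.02. The part of such differences in the *Sepp1* and *Gpx3* values of MEFs was not tested.

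The receptors that take up selenoprotein P are *Lrp8* (the receptor of testes and brain), *Lrp2* (megalin) and *Lrp1* (a broad endocytic receptor). Of their 13 measured pairs of gene and tissue, 0 were past 1.5-fold, with changes from -0.29 to 0.33. Over the 90218 measured pairs of all genes and tissues, 3.49% were past it, 2.21% higher and 1.29% lower, with a median change of -0.02, and the counts of this and the following lists are to be read beside these shares. The median of the receptors was 0.07. *Lrp8* in testes was 30.1 FPKM in wild-type and 29.7 FPKM in knockout. In MEFs *Lrp8* was 3.97 and 5.02 FPKM, a change of 0.33.

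The glutathione peroxidases reduce peroxides with glutathione, and their levels separated by tissue. *Gpx1*, the cytosolic enzyme of most cells, was 2533 FPKM in wild-type and 2458 FPKM in knockout liver. It was lowest in testes, at 20.5 and 23.7 FPKM. Prostate had 286 and 259 FPKM, MEFs 217 and 191 FPKM, heart 149 and 148 FPKM, and eyes 53.4 and 61.2 FPKM. In these 6 tissues its changes ran from -0.19 to 0.20.

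In spleen *Gpx1* was 382 FPKM in wild-type and 569 FPKM in knockout. The log2 change of 0.58 was just inside the limit and became 0.60, past it, when centred on the median change. Erythroid markers were all higher in the knockout spleen: 4 of 4 passed 1.5-fold, and their sum was 1445 FPKM in wild-type and 3360 FPKM in knockout, with no marker at 0. The pancreatic acinar list, 5 of 5 higher, went from 18.3 to 2081 FPKM. Their part in the *Gpx1* value was not tested.

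*Gpx3* encodes the peroxidase secreted into plasma. Its highest level was in heart, at 281 FPKM in wild-type and 334 FPKM in knockout, and its lowest in liver, at 3.76 and 4.96 FPKM. In prostate it was 73.6 FPKM in wild-type and 119.5 FPKM in knockout. The knockout value was 1.62 times the wild-type value, a log2 change of 0.70. In MEFs it was 25.3 FPKM in wild-type and 16.0 FPKM in knockout, the wild-type value being 1.58 times the knockout value, a log2 change of -0.66.

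In the other 5 tissues *Gpx3* had changes from 0.02 to 0.39 and was not past the limit. Spleen had 49.6 and 63.8 FPKM, eyes 104 and 117 FPKM, and testes 7.89 and 8.02 FPKM. Prostate also held more of other tissues' markers in the knockout. Adipocyte markers (*Adipoq*, *Cfd*, *Cidec* and *Plin1*) were higher for 4 of 4 measured, their list of 5 summing to 37.1 FPKM in wild-type and 168 FPKM in knockout. Seminal vesicle markers were higher for 2 of 5, with sums of 9698 and 19480 FPKM and changes from -0.56 to 1.62. Macrophage markers were higher for 2 of 4 measured, with sums of 13.03 and 16.84 FPKM. Of 2 measured erythroid markers 1 was higher, with sums of 22.7 and 34.8 FPKM, and no marker of these 4 lists was at 0. The prostate epithelium list summed to 25515 FPKM in wild-type and 21703 FPKM in knockout, with 1 of 3 measured higher and changes from -0.24 to 0.77. The part of all these lists in the *Gpx3* value was not tested. In MEFs the adipocyte list summed to 0.00720 FPKM in wild-type and 0.0225 FPKM in knockout, with none of its 5 genes measured.

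*Gpx4*, which reduces lipid peroxides within membranes, had its highest level in testes, at 1510 FPKM in wild-type and 1281 FPKM in knockout. In wild-type testes it made up 74.4% of the summed FPKM of the 10 genes. The testes change of -0.24 was the lowest among its 7 tissues in FPKM as deposited, and none was past the limit. This order depended on the scaling. Centred on the median change, *Gpx4* had -0.18 in testes and -0.20 in MEFs. Relative to the summed FPKM without mitochondrial genes and genes with too little data, it had -0.13 in testes and -0.17 in MEFs. Heart had 799 and 853 FPKM, liver 491 and 505 FPKM, and eyes 295 and 347 FPKM. Prostate had 276 and 252 FPKM, MEFs 231 and 201 FPKM, and spleen 155 and 169 FPKM. The changes outside testes ran from -0.20 in MEFs to 0.23 in eyes.

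*Gpx2*, the enzyme of gut epithelium, was below 1 FPKM as a mean of the genotypes in all 7 tissues. Its highest values were in prostate, at 0.895 FPKM in wild-type and 1.08 FPKM in knockout, and the next in eyes, at 0.285 and 0.587 FPKM. In the other 5 tissues both genotypes were at or under 0.162 FPKM.

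The cytosolic and mitochondrial thioredoxin reductases, *Txnrd1* and *Txnrd2*, keep thioredoxin reduced, and *Txnrd3* is the thioredoxin glutathione reductase found mainly in testes. *Txnrd1* was 83.6 FPKM in wild-type and 84.1 FPKM in knockout liver, and 81.0 and 99.4 FPKM in MEFs, where its change was 0.30. In the other 5 tissues it lay between 12.6 and 23.2 FPKM in either genotype, with changes from -0.02 to 0.21.

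*Txnrd2* was 18.3 FPKM in wild-type and 29.2 FPKM in knockout spleen, where the knockout value was 1.60 times the wild-type value, a log2 change of 0.67. In that tissue erythroid and pancreatic acinar markers were also higher, as given for *Gpx1*, and their part in the *Txnrd2* value was not tested. Elsewhere *Txnrd2* was highest in liver, at 43.4 and 40.5 FPKM, followed by heart at 27.2 and 29.1 FPKM and prostate at 21.7 and 18.9 FPKM. Its lowest level was in testes, with 2.60 FPKM in wild-type and 2.59 FPKM in knockout.

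*Txnrd3* reached 228 FPKM in wild-type and 210 FPKM in knockout testes, a change of -0.11. Its next highest wild-type level was 6.66 FPKM in heart, which puts wild-type testes 34.2 times above any other wild-type tissue. In spleen it was 2.20 and 1.86 FPKM, a change of -0.23, and in MEFs 3.36 and 4.27 FPKM, a change of 0.34. In MEFs all 3 reductases therefore had changes above 0, from 0.25 to 0.34, and none of the 3 was past the limit.

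*Dio1* encodes the deiodinase that turns thyroxine into the active thyroid hormone in liver and kidney. It was 101 FPKM in wild-type and 89.2 FPKM in knockout liver, a change of -0.18, and 1.30 and 1.21 FPKM in testes. In the other 5 tissues both genotypes were at or under 0.138 FPKM, and in MEFs it was listed at 0 in both. *Dio1* was the only one of the 10 genes besides *Gpx2* that was not measured in every tissue.

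*Sepw1* encodes a small thioredoxin-like protein that is abundant in muscle. It varied least across tissues of the 8 genes measured in all 7, the wild-type level in heart, 243 FPKM, being 1.79 times that in MEFs, 136 FPKM. Relative to the summed FPKM without mitochondrial genes and genes with too little data, it was also the least variable of the 8, with 3.86 times between eyes, the highest, and liver, the lowest. The other wild-type levels were 194 FPKM in testes, 187 FPKM in eyes, 187 FPKM in prostate, 155 FPKM in spleen and 142 FPKM in liver. Its changes ran from -0.21 in MEFs to 0.27 in eyes.

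**Figure D2:**
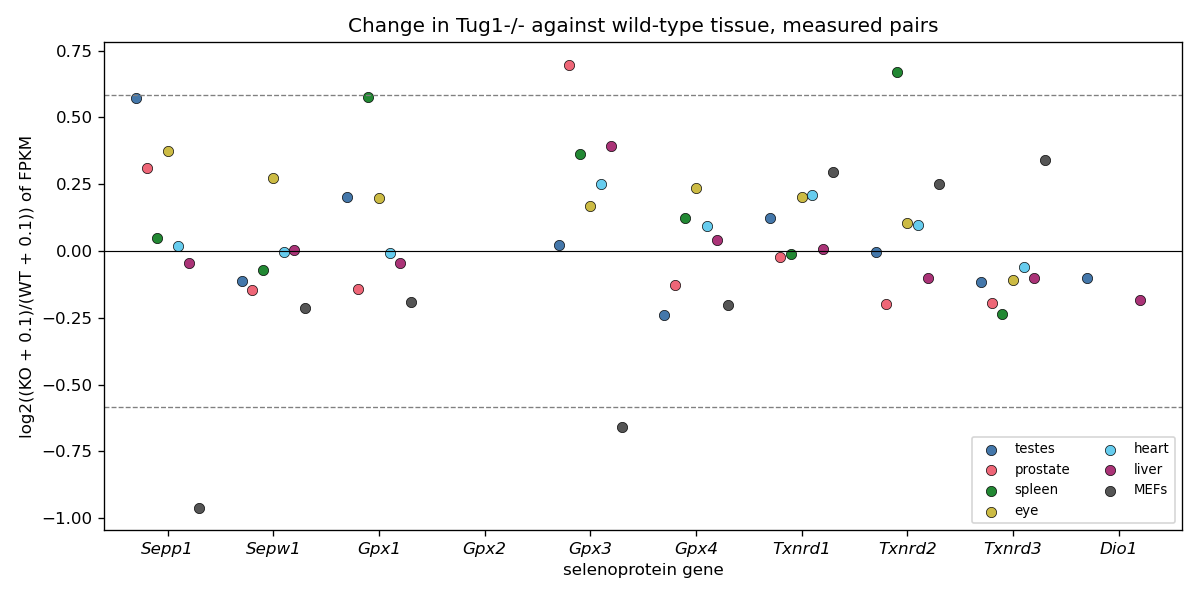
Change of each selenoprotein gene in *Tug1*-/- against wild-type tissue as log2((KO + 0.1)/(WT + 0.1)) of FPKM (y axis), by gene (x axis) and tissue (colour), for the 58 measured pairs, with dashed lines at 1.5-fold. The 4 points outside the dashed lines are *Sepp1* and *Gpx3* in MEFs, *Gpx3* in prostate and *Txnrd2* in spleen.

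The median change of the measured members was -0.19 in MEFs, beside 0.00 for all measured genes there, and 0.20 in eyes, beside -0.02. In MEFs 5 of 8 measured members had a change below 0, and in eyes 7 of 8 had a change above 0, and both counts were the same under each of the 3 other scalings tried. With the median of all measured genes at 0.00 in MEFs, 5 of 8 is close to the even split of all genes there. Eyes of the knockout also had more of the skeletal muscle markers, 5 of 5 higher with sums of 1666 and 3042 FPKM, and of the adipocyte markers, 4 of 4 measured higher with sums of 37.3 and 176 FPKM. Erythroid markers were higher for 2 of 2 measured, with sums of 25.3 and 74.5 FPKM, and cardiomyocyte markers for 2 of 3 measured, with sums of 73.0 and 137 FPKM. The part of these lists was not tested. In the other 5 tissues the median of the members lay between -0.14 in prostate and 0.09 in spleen.

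The rank of the genes within a tissue also differed. *Sepp1* made up 67.8% of the summed FPKM of the 10 genes in wild-type liver, and *Gpx1* was second there. *Gpx4* was highest in testes, eyes, heart and MEFs of wild-type mice, whereas *Gpx1* was highest in prostate and spleen. Summed over all genes, FPKM ran from 378014 (eyes, wild-type) to 1124500 (liver, wild-type), and the order of tissues depends on whether levels are taken relative to these sums. Relative to the sum without mitochondrial genes and genes with too little data, the highest wild-type tissue was unchanged for 7 of the 10 genes: liver for *Sepp1*, *Gpx1* and *Dio1*, testes for *Gpx4* and *Txnrd3*, heart for *Gpx3*, and prostate for *Gpx2*. It became MEFs for *Txnrd1*, heart for *Txnrd2* and eyes for *Sepw1*.

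Genes that resemble each member were taken by Pearson's r of log2 levels relative to the summed FPKM over the 14 tissue-by-genotype values, which share libraries between genes and pair both genotypes of a tissue. The genes named had the highest r among 16767 compared, so a high r comes in part from this choice. *Sepp1* was most like *Cyp27a1* (r = 0.99) and *Rarres2* (r = 0.98), and *Dio1* most like *F12*, a coagulation factor made in liver (r = 0.99), and *Dnajc22* (r = 0.99). As *Dio1* was measured only in liver and testes, its r rests mainly on the values of these tissues. *Gpx1* was most like *Nudt1* and *Slc35d2* (both r = 0.96), and *Gpx3* most like *2900076A07Rik* and *Lmcd1* (both r = 0.98). *Gpx4* was most like *Gm14818* (r = 0.98) and *Hrasls* (r = 0.97), whereas no likeness is given for *Gpx2*, which was measured in no tissue. *Txnrd1* was most like *Phldb2* and *Fn1*, the fibronectin gene (both r = 0.98), *Txnrd2* most like *Nostrin* and *Ttc32* (both r = 0.96), and *Txnrd3* most like *Gm13324* and *Defb19* (both r = 0.99). *Sepw1* was most like *Sfxn4* and *Slc41a1* (both r = 0.97).

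The other genes of the pathway were taken as lists. The machinery of selenocysteine synthesis and insertion (*Sepsecs*, *Pstk*, *Secisbp2*, *Secisbp2l*, *Eefsec*, *Trnau1ap*, *Sars*, *Sephs1* and *Scly*) was measured for all 9 genes in all 7 tissues. Of these 63 pairs 0 were past 1.5-fold, and their changes ran from -0.23 to 0.26 with a median of -0.03, beside the 3.49% of all pairs past the limit.

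The other selenoproteins found in the table were 12 genes. Of their 71 measured pairs 1 was higher and 0 were lower, with a median change of -0.02, the same as that of all pairs at 2 decimals. *Dio2*, the deiodinase that makes active thyroid hormone inside cells, was 1.92 FPKM in wild-type and 3.05 FPKM in knockout eyes, a change of 0.65. Its level is low, and its change was not recomputed with another pseudocount. In the same eyes the skeletal muscle and adipocyte markers were higher, with the sums given above, and their part in the *Dio2* value was not tested. *Sephs2*, itself a selenoprotein that makes the selenium donor, was 893 FPKM in wild-type and 751 FPKM in knockout liver, a change of -0.25.

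*Selm* stood apart from these genes. It was past 1.5-fold in 6 of 7 tissues, all higher, with changes from 0.75 in MEFs to 1.02 in heart. In heart it was 61.0 FPKM in wild-type and 123.6 FPKM in knockout. In spleen, the tissue where it was not past the limit, it was 19.4 and 28.8 FPKM, a change of 0.57.

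The glutathione peroxidases that carry cysteine in place of selenocysteine are *Gpx5*, *Gpx6*, *Gpx7* and *Gpx8*. Of their 15 measured pairs 1 was higher and 2 were lower, with a median change of -0.03, beside 2.21% higher and 1.29% lower among all pairs. *Gpx6*, an olfactory enzyme, was 28.3 FPKM in wild-type and 43.9 FPKM in knockout testes, a change of 0.63, and 1.83 and 1.17 FPKM in liver, a change of -0.61. *Gpx7*, an enzyme of the endoplasmic reticulum, was 1.76 and 1.02 FPKM in spleen, a change of -0.74. The 2 lower pairs lie near the limit of 1 FPKM, and their changes were not recomputed with another pseudocount. Marker lists that differed in testes, liver and spleen are given with other genes, and their part in the *Gpx6* and *Gpx7* values was not tested.

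The thioredoxin and glutathione partners (*Txn1*, *Txn2*, *Txnip*, *Gsr*, *Gss*, *Gclc* and *Gclm*) had 1 higher and 0 lower of 49 measured pairs, with a median change of 0.07. The higher one was *Gclm*, the modifier subunit of the enzyme that starts glutathione synthesis, at 26.9 FPKM in wild-type and 50.0 FPKM in knockout spleen, a change of 0.89. The erythroid and pancreatic acinar markers were higher in the same spleen values, and their part in the *Gclm*, *Nqo1* and *Thrsp* values of spleen was not tested. Among 42 measured pairs of NRF2 targets, genes of the oxidative stress response that include *Nqo1* and *Hmox1*, 3 were higher and 0 lower, with a median change of 0.10, beside 2.21% higher among all pairs. *Nqo1*, a quinone reductase, was 2.62 and 4.49 FPKM in spleen, a change of 0.75. *Hmox1*, which degrades heme, was 16.4 and 28.3 FPKM in liver, a change of 0.78, and 9.01 and 13.6 FPKM in heart, a change of 0.59. In liver the macrophage markers summed to 114 FPKM in wild-type and 154 FPKM in knockout, with 2 of 6 higher and none at 0, and their part in the *Hmox1* value was not tested. The marker lists that differed in heart are given above, and their part in the heart value of *Hmox1* was not tested.

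Of 34 measured pairs of thyroid hormone response genes 3 were higher and 0 lower, with a median change of 0.02, and all 3 were *Thrsp*, a gene of fat synthesis. The share of all measured genes past the limit in those tissues was 3.08% in prostate, 3.51% in eyes and 6.02% in spleen. It was 1.5 FPKM in wild-type and 6.67 FPKM in knockout prostate, 10.8 and 23.7 FPKM in eyes, and 0.944 and 1.81 FPKM in spleen, with changes of 2.08, 1.13 and 0.87. In prostate and eyes the adipocyte markers were higher as well, with the sums given above, and their part in the *Thrsp* values was not tested. In liver, where *Dio1* was highest, 0 of 5 measured genes of this list were past the limit.

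**Figure D3:**
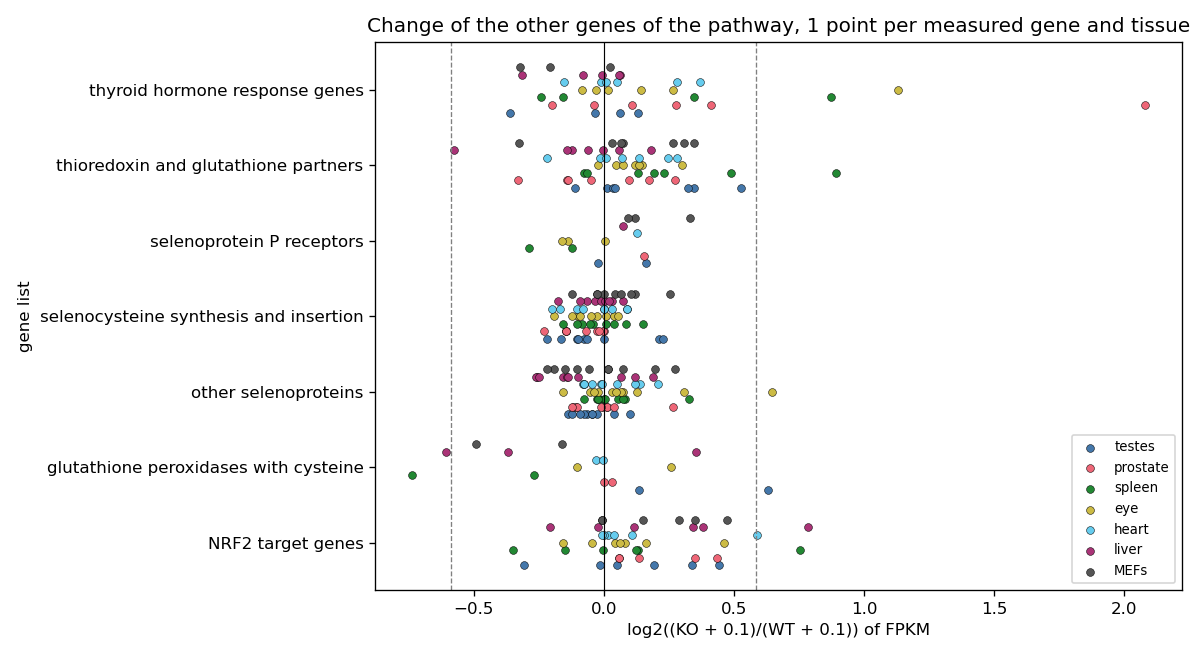
Change in *Tug1*-/- against wild-type tissue as log2((KO + 0.1)/(WT + 0.1)) of FPKM (x axis) of the measured genes of 7 pathway lists (y axis), with 1 point per gene and tissue, colour by tissue and dashed lines at 1.5-fold. All 63 points of selenocysteine synthesis and insertion lie between the dashed lines, and the point farthest right is *Thrsp* in prostate at 2.08.

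**Figure D4:**
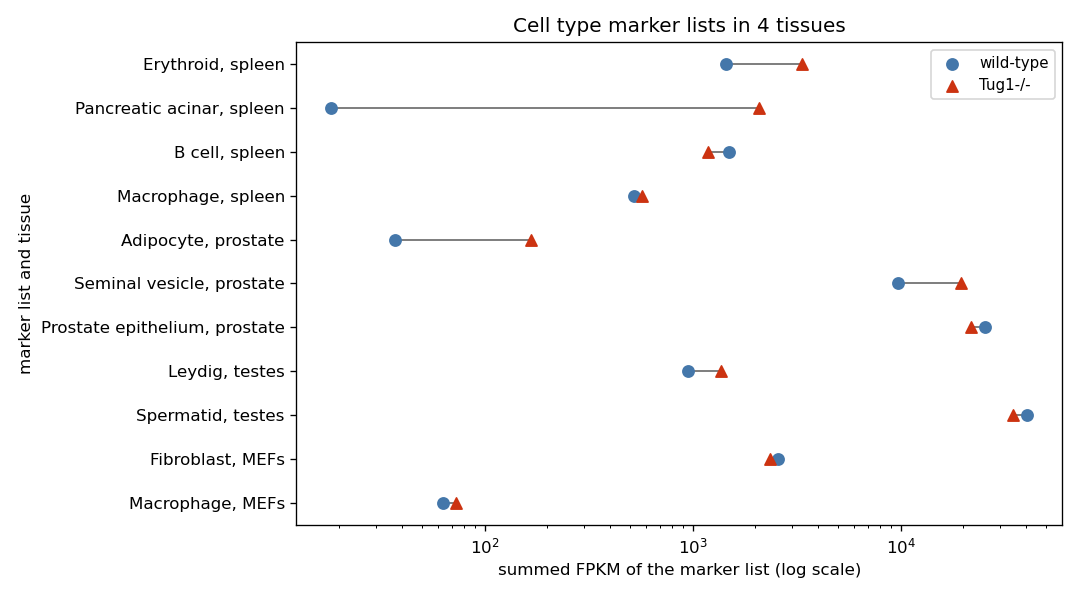
Summed FPKM of cell type marker lists on a log scale (x axis) in spleen, prostate, testes and MEFs (y axis), with wild-type as blue circles and *Tug1*-/- as red triangles joined by a line, each point being a sum of the authors' pooled values. The pancreatic acinar list of spleen has the longest line, from 18.3 to 2081 FPKM, and the fibroblast list of MEFs a short one, from 2578 to 2366 FPKM.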

How the data were processed

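The authors' deposited table holds 1 FPKM value per gene for each genotype and tissue, with the replicates combined by the authors. The unit is read from its layout and from the submitters' processing notes, which name CASAVA 1.8.2, TopHat2, Cuffdiff and mm10. Its columns of fold changes, test statistics, *p* and *q* values hold the authors' own comparisons and were not used. The table covers 8 tissues, and the 1 with no samples here (brain) was not analysed here. Libraries had been made with a TruSeq poly(A) kit and sequenced as paired ends.

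The members and lists were chosen with earlier results of these data known. All 10 members were described in all 7 tissues. For each member the 2 genes with the highest Pearson's r were named (left out for *Gpx2*, which was not measured). Of each pathway list, at most 4 genes past 1.5-fold were given with values. *Lrp8* and *Sephs2* were also given, although within the limit, and *Sephs2* was not picked by the size of its change. Genes were required to have a mean of 1 FPKM, with a pseudocount of 0.1 and a fold limit of 1.5. As the depth is unknown, no interval or smallest measurable value could be given. The fold rule was tested on simulated data without noise, with planted changes larger than the limit. That checks the calculation, and not how often noise passes the limit. Sequences and coordinates were read from GENCODE vM21 (GRCm38). Python 3.11.15, numpy 2.4.6, pandas 2.3.3 and matplotlib 3.10.9 were used.

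Alternatives were other pseudocounts, filters, fold limits and scalings, described in the closing section. A further overlap of a member with another gene is not reported here.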

Additional observations from a re-analysis of the deposited data

How the results depend on the processing

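No paired analysis was possible because the table holds 1 pooled value per genotype and tissue, and for the same reason no replicate could be left out. Depth limits are unknown. Of 457 recomputed changes of members under 8 settings (pseudocounts, low-value filters, scalings, completed estimates), 453 stayed on the same side of 1.5-fold. A further 4 came to lie past it, all under the scalings, and 0 changed direction after being past it. The low-value filters (58 and 51 changes) and the completed estimates (58) alter which pairs are counted and not their values. The changes under those settings could therefore not differ. Scaling to the summed FPKM, and scaling to that sum without mitochondrial genes and genes with too little data (added after seeing the data, as was the restriction to completed estimates), each took the testes count from 0 to 1 (*Sepp1*). Of all measured genes in testes, 2.57% and 2.6% were past the limit under these scalings. Centring on the median change gave 1 in testes, 2 in spleen and 4 higher pairs in all. The shares of all measured genes were then 2.16% in testes and 6.09% in spleen. Without the filter on low values the count in eyes was 1 (*Gpx2*), beside 4.5% of all genes with a value there. A fold limit of 2 left 0 members in prostate, spleen and MEFs, with 0 pairs higher and 0 lower. Of all measured genes, 0.475% in testes to 1.9% in spleen were past that limit. A limit of 0.32 on the log2 scale gave 1 member in testes, 3 in spleen, 1 in eyes, 1 in liver, 3 in MEFs and 8 higher pairs. The shares of all measured genes past it were 9.76% in testes, 15.2% in spleen, 10.6% in eyes, 16.3% in liver and 12.7% in MEFs. The number of members highest in wild-type liver was 5 in FPKM and 3 under either scaling. Relative to the summed FPKM, the median change of all measured genes in liver moved by 0.16, and the share of higher genes among those past 1.5-fold went from 60.8% to 78.7% in testes, 37.8% to 23.3% in heart, 53.1% to 80.2% in liver and 30.7% to 43.1% in MEFs; without mitochondrial genes the testes median moved by 0.11. For the other moved values the cause was not tested. Changes of the list genes were not recomputed under these settings. Calls at low levels, such as *Gpx6* in liver, *Gpx7* in spleen, *Dio2* in eyes and *Thrsp* in spleen, therefore have no such check.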
